A study of Mus musculus with 7 samples.

Results

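The Hox genes are the homeodomain transcription factor genes that lie in the 4 mammalian Hox clusters. The 38 genes analysed here comprise 10 of HoxA on chromosome 6, 10 of HoxB on chromosome 11, 9 of HoxC on chromosome 15 and 9 of HoxD on chromosome 2, out of 21938 protein-coding genes of the mouse annotation. They were chosen by name and not by their peaks. For each gene, the called ATAC-seq peaks within 5 kb of the gene body and the TSS-proximal peaks (within 1 kb of the 5′ end of the gene) were taken from each library. For each cluster, the peaks of a window from 20 kb before the first to 20 kb after the last of these genes were taken. The 4 windows held 70 of the 104248 merged regions of the series, where touching or overlapping peaks of all libraries form 1 region.

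ATAC-seq marks open chromatin by the sites at which Tn5 transposase cuts the DNA of nuclei. The libraries came from mouse embryonic fibroblasts (MEFs) on the way to pluripotency and from embryonic stem cells (ESCs). There is 1 library for untreated MEFs (day 0), 1 each for days 1, 2, 3, 6 and 9 of doxycycline at 2 µg/mL, and 1 for untreated Bruce-4 ESCs. All MEF libraries, the untreated one included, carry a tetO cassette of *Pou5f1*, *Klf4*, *Sox2* and *Myc* (OKSM), inserted at *Col1a1*, together with rtTA*M2, the doxycycline-dependent activator, which the ROSA 26 promoter drives. Doxycycline-treated cells were also given more serum than day 0, with a change to ESC medium once colonies emerge, shortly before day 9, and the ESCs grew in ESC medium with mLIF, so that treatment, time and medium cannot be told apart. The label of the ESC library names Bruce-4 as the line but repeats the genotype entry of the MEFs. The MEFs were prepared from embryos without head, heart and liver, and are therefore a mixture of cells from several levels of the body axis. With 1 library per time-point there is no replicate check, and no difference between libraries could be tested.

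Hox proteins give cells their position along the head-to-tail axis. In each cluster the genes stand in the order in which they are used along the body, from the anterior genes (paralogue groups 1 to 3) through the central genes (4 to 8) to the posterior genes (9 to 13), and genes of the same number in different clusters are paralogues. Fibroblasts keep a Hox expression pattern of the body site they came from, whereas in ESCs the clusters are known for being held silent by Polycomb group complexes.

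The libraries held between 27074 (ESCs) and 61241 peaks (day 0). The files list positions without reads or scores, so the depth behind a peak is unknown and a gene without a peak is not shown to be closed. In such mixed populations, fewer cells with an open site and less signal per cell cannot be told apart. Fibroblast markers had a TSS-proximal peak in 8 of 10 genes on day 0 and in 2 of 10 in ESCs, whereas ESC markers had one in 3 of 10 on day 0 and in 1 of 10 in ESCs. Endothelial and blood markers had one in 3 of 8 genes on day 0 and in 2 of 8 in ESCs. Within 5 kb, ESC markers had a peak in 6 of 10 genes both on day 0 and in ESCs. The ESC markers therefore did not set the ESC library apart by either measure.

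The regions of the clusters with the longest-lasting peaks are shown by their sequence, since they carry the results on the individual genes. The 200 bp at the centre of each region are printed on the plus strand of mm10. Capitals mark matches on either strand to the 8 motifs searched, AP-1 (TGANTCA), the octamer (ATGCAAAT), SOX (ACAATGG), KLF (GGGTGTGG), the MYC E-box (CACGTG), HOX-PBX (TGATTNAT), the homeobox core (TAATTA) and the CTCF core (CNAGGGGGC). The first 5 sequences belong to regions with a peak in all 7 libraries, the next 3 to regions with a peak on day 0 and on at least 4 of the 5 doxycycline days but not in ESCs, and the last one to the widest region with peaks under doxycycline alone.
*Hoxa3* body, every library, chr6:52172615-52172814: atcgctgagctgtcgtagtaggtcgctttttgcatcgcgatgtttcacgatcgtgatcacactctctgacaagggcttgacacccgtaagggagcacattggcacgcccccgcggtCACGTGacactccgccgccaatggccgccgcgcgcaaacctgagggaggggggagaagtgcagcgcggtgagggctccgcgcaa
*Hoxa7* 5′ end, every library, chr6:52221769-52221968: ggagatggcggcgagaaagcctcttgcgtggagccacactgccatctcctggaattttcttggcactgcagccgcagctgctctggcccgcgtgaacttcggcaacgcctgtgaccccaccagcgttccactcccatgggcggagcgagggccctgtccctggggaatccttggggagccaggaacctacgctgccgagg
*Hoxa10* 5′ end, every library, chr6:52240532-52240731: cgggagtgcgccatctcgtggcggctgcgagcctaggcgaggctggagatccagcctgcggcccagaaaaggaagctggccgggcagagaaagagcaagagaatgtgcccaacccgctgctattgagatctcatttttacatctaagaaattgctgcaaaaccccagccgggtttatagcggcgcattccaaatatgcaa
*Hoxd10* 5′ end, every library, chr2:74691668-74691867: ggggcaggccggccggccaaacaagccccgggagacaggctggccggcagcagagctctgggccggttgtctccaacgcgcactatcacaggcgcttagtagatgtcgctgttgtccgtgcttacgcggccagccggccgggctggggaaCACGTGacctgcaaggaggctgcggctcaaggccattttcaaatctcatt
*Hoxd13* 5′ end, every library, chr2:74667989-74668188: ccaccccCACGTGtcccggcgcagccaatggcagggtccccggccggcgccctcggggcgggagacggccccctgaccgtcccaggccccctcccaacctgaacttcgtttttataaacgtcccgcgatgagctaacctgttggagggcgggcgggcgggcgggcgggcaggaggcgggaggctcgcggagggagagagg
*Evx2* exon beside *Hoxd13*, MEF libraries, chr2:74655758-74655957: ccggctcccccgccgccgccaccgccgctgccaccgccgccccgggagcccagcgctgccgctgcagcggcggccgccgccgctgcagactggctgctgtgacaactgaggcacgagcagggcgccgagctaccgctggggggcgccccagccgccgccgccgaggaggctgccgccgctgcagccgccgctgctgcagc
Between *Hoxb13* and *Hoxb9*, day 0 to day 6, chr11:96260371-96260570: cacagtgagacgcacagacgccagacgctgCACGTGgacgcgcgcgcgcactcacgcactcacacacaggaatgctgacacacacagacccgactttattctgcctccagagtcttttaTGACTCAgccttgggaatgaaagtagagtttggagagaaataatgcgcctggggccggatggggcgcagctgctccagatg
Intron of the long *Hoxd3* model, MEF libraries but day 2, chr2:74740590-74740789: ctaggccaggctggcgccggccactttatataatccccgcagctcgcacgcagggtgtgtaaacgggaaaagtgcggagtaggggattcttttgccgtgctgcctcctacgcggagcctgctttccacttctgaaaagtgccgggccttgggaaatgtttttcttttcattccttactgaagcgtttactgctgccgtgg
*Hoxd3* and *Hoxd4* 5′ end, days 2, 3 and 6, chr2:74712026-74712225: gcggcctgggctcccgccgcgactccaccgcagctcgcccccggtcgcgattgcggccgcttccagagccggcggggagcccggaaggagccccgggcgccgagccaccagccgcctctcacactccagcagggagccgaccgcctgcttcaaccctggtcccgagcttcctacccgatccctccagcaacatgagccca

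The 4 clusters fell into a pair with many peaks and a pair with few. The HoxA window (chr6:52142417-52280880) held 21 peaks on day 0, 6 in ESCs and 10, 7, 11, 10 and 9 on days 1, 2, 3, 6 and 9. The HoxD window (chr2:74648310-74785142) held 11 on day 0, 3 in ESCs and 9, 6, 8, 12 and 6 on the doxycycline days. The HoxB window (chr11:96174316-96388256), the longest of the 4, held 5, 6, 3, 5, 2, 3 and 5 peaks from day 0 to ESCs, and the HoxC window (chr15:102901103-103056852) held 6, 6, 1, 4, 2, 2 and 5. HoxA and HoxD thus had more peaks than HoxB and HoxC in each MEF library, whereas the ESC library had 3 to 6 peaks in each window.

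The peaks covered 5.16% of the HoxA window on day 0 and 3.46% of the HoxD window, against 0.962% of chromosomes 1 to 19, X and Y in the same library. The HoxB and HoxC windows, at 0.854% and 1.02%, were close to that share. HoxA kept between 1.78% (day 2) and 3.60% (day 3) under doxycycline, and fell to 1.31% in the ESC library, against 0.416% of all chromosomes there. HoxD coverage was 2.03, 1.89, 2.09, 3.11 and 1.65% on days 1, 2, 3, 6 and 9, and 0.758% in ESCs, so that day 6 was the doxycycline library nearest to day 0. HoxB and HoxC were below the share of all chromosomes on days 2, 6 and 9 and above it in ESCs, at 0.779% and 1.18%. In the ESC library the windows therefore lay closer together than on day 0, with coverage between 0.758% and 1.31%. With equal numbers of peaks, the 27074 widest per library, day 0 coverage was 2.37% for HoxA and 2.70% for HoxD, which exchanged their order, against 0.543% for HoxB and 0.322% for HoxC.

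**Figure D1:**
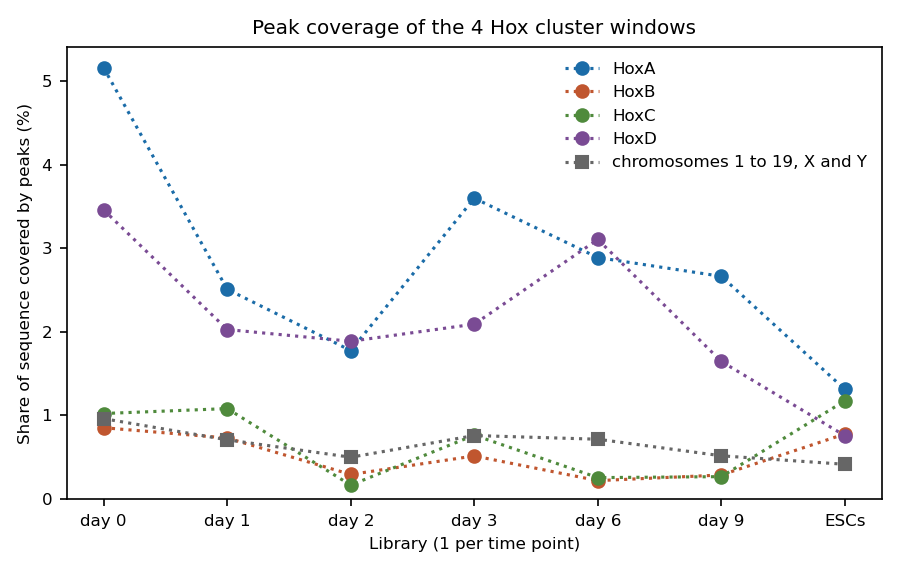
Share of each Hox cluster window covered by called peaks (y axis, percent of bases) in the 7 libraries (x axis), with the share of chromosomes 1 to 19, X and Y in the same library as squares. HoxA (5.16%) and HoxD (3.46%) stand above the squares on day 0, while HoxB and HoxC lie below them on days 2, 6 and 9 and above them in ESCs; dotted lines join the points of a cluster and each point is 1 library.

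Of the 38 Hox genes, 17 had a TSS-proximal peak on day 0 (44.7%, exact 95% interval 28.6 to 61.7), against 54.5% of all protein-coding genes. The count was 11 at day 1 (background 50.7%), 10 at day 2 (46.9%), 14 at day 3 (51.4%), 13 at day 6 (52.6%), 6 at day 9 (48.8%) and 8 in ESCs (46%). The share of Hox genes was below that of protein-coding genes in each library, and this background lay above the exact interval of the Hox share on days 1, 2, 6 and 9 and in ESCs (9.55 to 37.3% there). Against all GENCODE genes, noncoding ones included, the direction turned in 5 of the 7 libraries: that background was 28.7, 26, 23.6, 26.6 and 26.9% on days 0, 1, 2, 3 and 6, below the Hox share, and 24.6% on day 9 and 23% in ESCs, above it. Neighbouring genes share peaks and are not independent, and the intervals cover counting error only. The fall from day 0 to ESCs was nearly gone at equal peak numbers: among the 27074 widest peaks per library the counts were 9 for day 0, 8 for ESCs and 5, 8, 4, 6 and 6 for the days between. That setting selects by width as well as number, and the share of protein-coding genes was not counted under it.

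**Figure D2:**
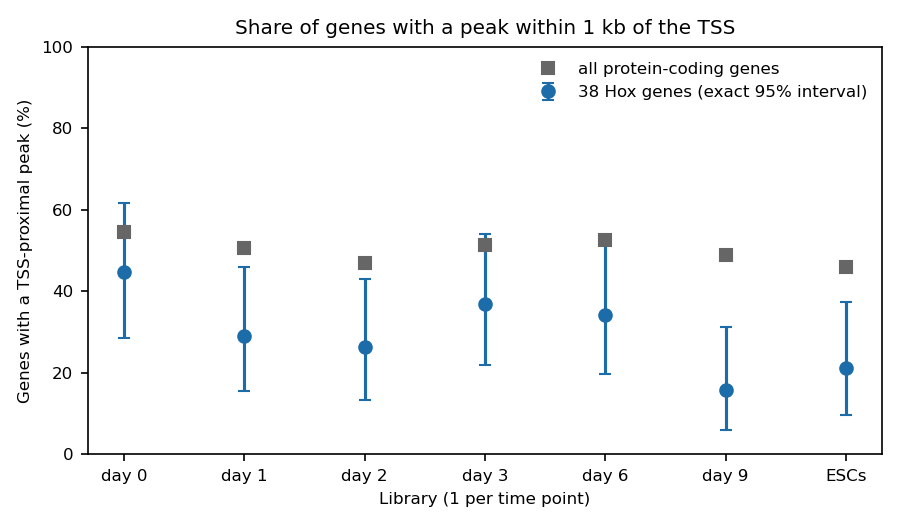
Percent of genes with a peak within 1 kb of the TSS (y axis) in each library (x axis), for the 38 Hox genes with exact 95% intervals (counting error only) and for all protein-coding genes as squares. The Hox share is 44.7% on day 0 and 21.1% in ESCs, and it lies below the square in each library.

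Within 5 kb of the gene body, 26 Hox genes had a peak on day 0, 18 in ESCs and 25, 20, 27, 23 and 19 on days 1, 2, 3, 6 and 9. From day 0 to ESCs, the share over all protein-coding genes was 73%, 69.1%, 64.6%, 70.2%, 70.1%, 65.5% and 62.5%, against 68.4%, 65.8%, 52.6%, 71.1%, 60.5%, 50% and 47.4% of the Hox genes. Hox genes are short, with a median length of 3497 bp against 17425 bp for all protein-coding genes, so their windows are also shorter. On day 0 all 10 HoxA genes and 8 of 9 HoxD genes had such a peak, against 6 of 9 HoxC and 2 of 10 HoxB genes. In ESCs the numbers were 7 of 10, 4 of 9, 5 of 9 and 2 of 10.

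A TSS-proximal peak in every library was found for 4 Hox genes, *Hoxa7*, *Hoxa10*, *Hoxd10* and *Hoxd13* (10.5% against 38.5% of all protein-coding genes). *Hoxa10* (region chr6:52240276-52240986, over the annotated 5′ end) had a peak of 503 bp on day 0, of 647, 550, 598, 640 and 616 bp on days 1, 2, 3, 6 and 9, and of 200 bp in ESCs. Its peak was narrowest in the ESC library, where it had the smallest width that occurs in the lists. For *Hoxa10* the state refers to the outermost 5′ end. Regions 117 and 433 bp from an inner annotated *Hoxa10* start had peaks on day 0 alone. The *Hoxd10* region (chr2:74691437-74692097) had summed widths of 609, 460, 518, 511, 560, 511 and 462 bp from day 0 to ESCs, the most even series of the 4. The *Hoxd13* region (chr2:74667749-74668427) had 635, 253, 520, 460, 575, 414 and 200 bp. On days 0, 1, 2 and 6 *Hoxd13* had another peak upstream, in chr2:74667011-74667637, which was missing in ESCs. The *Hoxa7* region (chr6:52221572-52222164) summed to 538, 507, 298, 306, 537, 289 and 406 bp. Among the 4 genes, 3 are posterior and *Hoxa7* is central, and none is in HoxB or HoxC. A further region with a peak in all 7 libraries lay in the *Hoxa3* body (chr6:52172396-52173033, overlapping a *Hoxa3* exon and 7565 bp from the *Hoxa2* TSS), with 573 bp on day 0 and 200 bp in ESCs.

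In 9 genes a TSS-proximal peak was called on day 0 and not in ESCs (23.7%, interval 11.4 to 40.2, against 11.3% of protein-coding genes). They were *Hoxa3*, *Hoxa4*, *Hoxa5*, *Hoxa11*, *Hoxa13*, *Hoxb13*, *Hoxc5*, *Hoxc10* and *Hoxd9*. *Hoxc5* and *Hoxc10* count the same peaks, since the annotated 5′ end of the long *Hoxc5* model stands beside that of *Hoxc10*. Even with these peaks counted for both genes, the lower end of the interval lay only just above the background. Day 0 also had 61241 peaks against 27074 in ESCs. Apart from *Hoxa3* and *Hoxd9*, the genes of this class had only day 0 TSS-proximal peaks narrower than 300 bp. No Hox gene had a TSS-proximal peak in ESCs and not on day 0, against 2.75% of protein-coding genes, and a count of 0 of 38 allows a share of up to 7.89%, taking 3 counts as the limit. The reverse direction was thus not detectable among 38 genes at the background rate.

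Several genes of this class had calls that came and went. *Hoxa3* had TSS-proximal peaks of 500, 287, 290 and 501 bp on days 0, 1, 3 and 9, and none on days 2 and 6. *Hoxa4* had 509 bp on day 0 in 2 peaks, none on day 1, and 200 and 239 bp on days 2 and 3. *Hoxa5* had 266 bp on day 0, none on day 1, and 236, 715 and 301 bp on days 2, 3 and 6. These 3 anterior and central HoxA genes thus had their last call on different days, and each had lacked a call on some earlier day. *Hoxa11*, which acts in limb and reproductive tract development, had 441 (2 peaks), 204 and 466 bp on days 0, 2 and 9. *Hoxa13*, the most posterior HoxA gene, had 259, 241 and 232 bp on days 0, 3 and 6, and none on day 9 or in ESCs. *Hoxd9* had 465, 304, 218 and 297 bp on days 0, 1, 3 and 6. *Hoxb13* had 1 peak of 200 bp on day 0 alone.

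At the paired *Hoxc5* and *Hoxc10* start the called interval shifted between libraries. Days 0 and 6 had peaks within chr15:102966344-102966594, 202 bp upstream of the *Hoxc10* TSS. Days 1 and 3 had theirs within chr15:102966710-102966919, over the TSS itself. All 4 were between 200 and 210 bp wide, and with the 300 bp minimum width this start has no peak.

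In 17 genes no library had a TSS-proximal peak (44.7%, near the background of 39.8%). They were *Hoxa2*, *Hoxa6*, *Hoxa9*, *Hoxb1*, *Hoxb2*, *Hoxb3*, *Hoxb4*, *Hoxb6*, *Hoxb7*, *Hoxb8*, *Hoxc4*, *Hoxc8*, *Hoxc9*, *Hoxc11*, *Hoxc12*, *Hoxd11* and *Hoxd12*. For *Hoxa9*, *Hoxb3* and *Hoxd11* this rests on the choice of the outermost 5′ end. A region in a *Hoxa9* exon at another annotated start (chr6:52225958-52226472) had peaks on days 0, 1 and 9, one at another start of *Hoxd11* (chr2:74681860-74682457) on days 0, 3 and 6, and one at another start of *Hoxb3* (chr11:96340893-96341092) on day 3. Counted over any annotated transcript, 20 Hox genes had a TSS-proximal peak on day 0 and 8 in ESCs.

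The other 8 genes had TSS-proximal peaks in some libraries. *Hoxc13* had 480, 498, 246 and 200 bp on days 0, 1, 3 and 6 and 489 bp in ESCs, in neighbouring regions at chr15:102920545-102921112 (days 0 and 1 and ESCs) and chr15:102921776-102922134 (days 0, 3 and 6). *Hoxc6* had 502 bp on day 0 and 473 bp in ESCs, both in chr15:102999127-102999711, with a peak of 244 bp in the same region on day 1 that lay farther than 1 kb from the TSS. *Hoxd8* had 470 and 535 bp on days 0 and 2 and 375 bp in ESCs (chr2:74704949-74705661). *Hoxc6* and *Hoxd8* thus had a call in both untreated libraries and in at most 1 of the 5 doxycycline libraries. The region chr6:52211452-52212059 inside the long *Hoxa3* model had 550 bp on day 0, no peak on days 1 and 2, 233, 342 and 255 bp on days 3, 6 and 9, and 252 bp in ESCs. Regions shared by day 0 and ESCs but missing from at least 1 doxycycline library made up 4 of the 70 Hox regions (5.71%), against 2.31% of all regions.

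*Hoxb9* had peaks on day 0 (575 bp), day 1 (242 bp) and in ESCs (337 bp), but in 3 regions that do not overlap. They follow each other from the TSS into the gene, chr11:96270895-96271469 on day 0, chr11:96271650-96271986 in ESCs and chr11:96272028-96272269 on day 1. *Hoxd3* and *Hoxd4*, whose annotated 5′ ends nearly coincide, share 1 region (chr2:74711813-74712438) with 474, 220 and 200 bp on days 2, 3 and 6, and no peak on day 0. *Hoxb5* had a single peak of 288 bp on day 1, and *Hoxd1* one of 200 bp on day 6. *Hoxd1*, *Hoxd3*, *Hoxd4* and *Hoxb5* were thus the genes with TSS-proximal peaks under doxycycline alone. For *Hoxd3* this rests on the outermost 5′ end, since an inner annotated start had a peak of 200 bp within 1 kb on day 0. The share of protein-coding genes in this state was not counted, so the genes are listed without a reading by number or position.

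**Figure D3:**
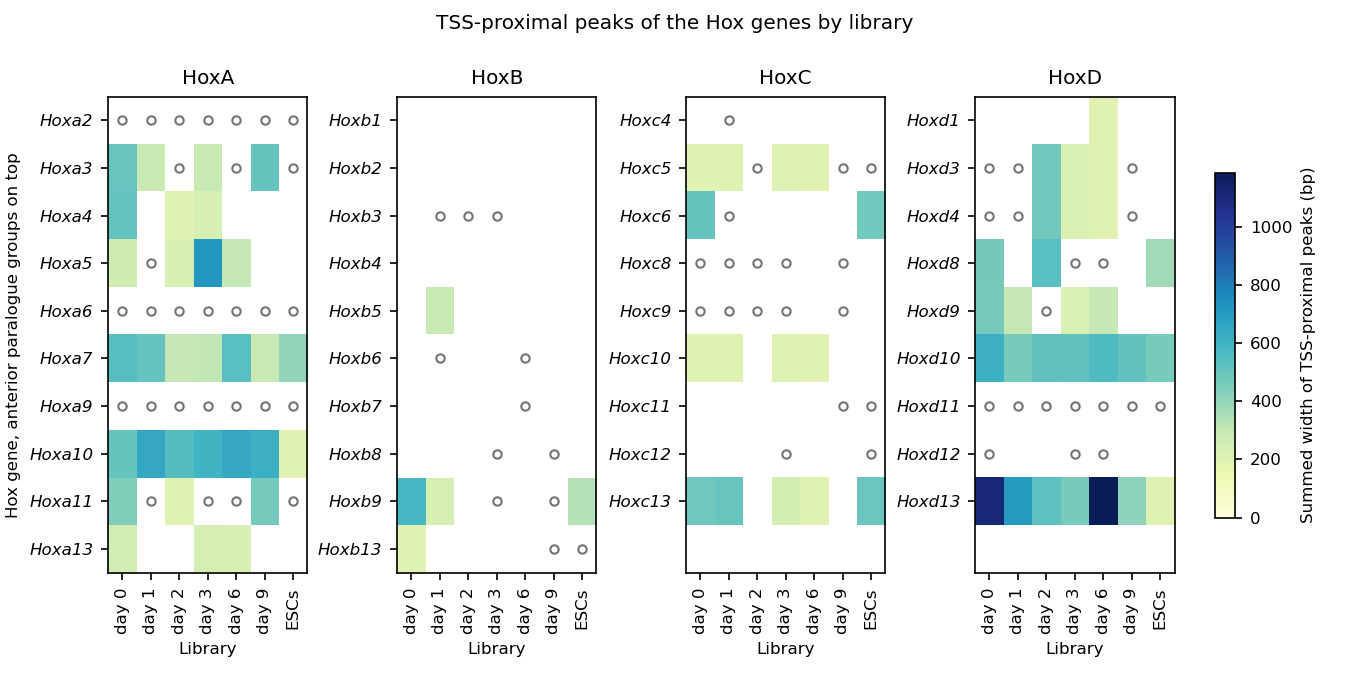
Summed width of TSS-proximal peaks (colour, bp) for each of the 38 Hox genes (y axis, anterior genes on top) in each library (x axis), by cluster. Open circles mark genes with a peak within 5 kb of the gene body but none near the TSS, and white cells have neither; *Hoxa7*, *Hoxa10*, *Hoxd10* and *Hoxd13* are filled in all 7 columns, and the HoxB panel is nearly empty above *Hoxb9*.

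Along the axis of the clusters, TSS-proximal peaks on day 0 were called in 10 of 16 posterior genes (62.5%), 6 of 15 central genes (40%) and 1 of 7 anterior genes (14.3%), against 54.5% of protein-coding genes. In ESCs the numbers were 5 of 16 (31.2%), 3 of 15 (20%) and 0 of 7, against 46%. Between them, days 1, 2, 3, 6 and 9 had 7, 4, 7, 7 and 4 posterior genes, 3, 5, 5, 4 and 1 central genes, and 1, 1, 2, 2 and 1 anterior genes. The classes follow paralogue number, and the outermost 5′ end of a gene can lie elsewhere in its cluster. The only anterior gene called on day 0, *Hoxa3*, has that end beyond *Hoxa6*. The central gene *Hoxc5* was called there through the peak of the posterior gene *Hoxc10*. The order of posterior above central genes on day 0 and in ESCs rested on HoxB, whose 8 anterior and central genes had no such peak in either library. Without HoxB, 8 of 14 posterior (57.1%), 6 of 10 central (60%) and 1 of 4 anterior genes (25%) had one on day 0. In ESCs these numbers were 4 of 14 (28.6%), 3 of 10 (30%) and 0 of 4.

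Among paralogues, all 4 genes of group 13 (*Hoxa13*, *Hoxb13*, *Hoxc13*, *Hoxd13*) and all 3 genes of group 10 (*Hoxa10*, *Hoxc10*, *Hoxd10*) had a TSS-proximal peak on day 0, against 54.5% of protein-coding genes. With 2 to 4 genes per group these counts are descriptions. The day 0 peaks of *Hoxa13*, *Hoxb13*, *Hoxc13* and *Hoxc10* were all narrower than 300 bp. Group 13 genes pattern the end of the body axis, the distal limb and the urogenital tract. In ESCs 2 of the 4 group 13 genes and 2 of the 3 group 10 genes had one (background 46%), and on day 9 the numbers were 1 of 4 and 2 of 3. Both genes of group 12 and both of group 2 had none in any library.

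HoxB stood apart by what was missing. From *Hoxb1* to *Hoxb8*, no gene had a peak within 5 kb on day 0 or in ESCs. Under doxycycline *Hoxb3* had one on days 1, 2 and 3, *Hoxb5* on day 1, *Hoxb6* on days 1 and 6, *Hoxb7* on day 6 and *Hoxb8* on days 3 and 9. *Hoxb1*, *Hoxb2* and *Hoxb4* had none in any library and were the only Hox genes of which this was so. The regions behind these counts were narrow, from 200 bp at the inner *Hoxb3* start named above to a merged width of 386 bp in the *Hoxb3* body on days 1 and 2 (chr11:96333578-96333963). The region of HoxB with peaks in most libraries lay outside the listed genes, 10674 bp from the *Hoxb9* TSS (chr11:96260158-96260783, within the long noncoding gene model *Gm53*). It had 586, 387, 200, 496 and 200 bp on days 0, 1, 2, 3 and 6, and no peak on day 9 or in ESCs. It was the only HoxB region of day 0 with a peak in any other library.

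**Figure D4:**
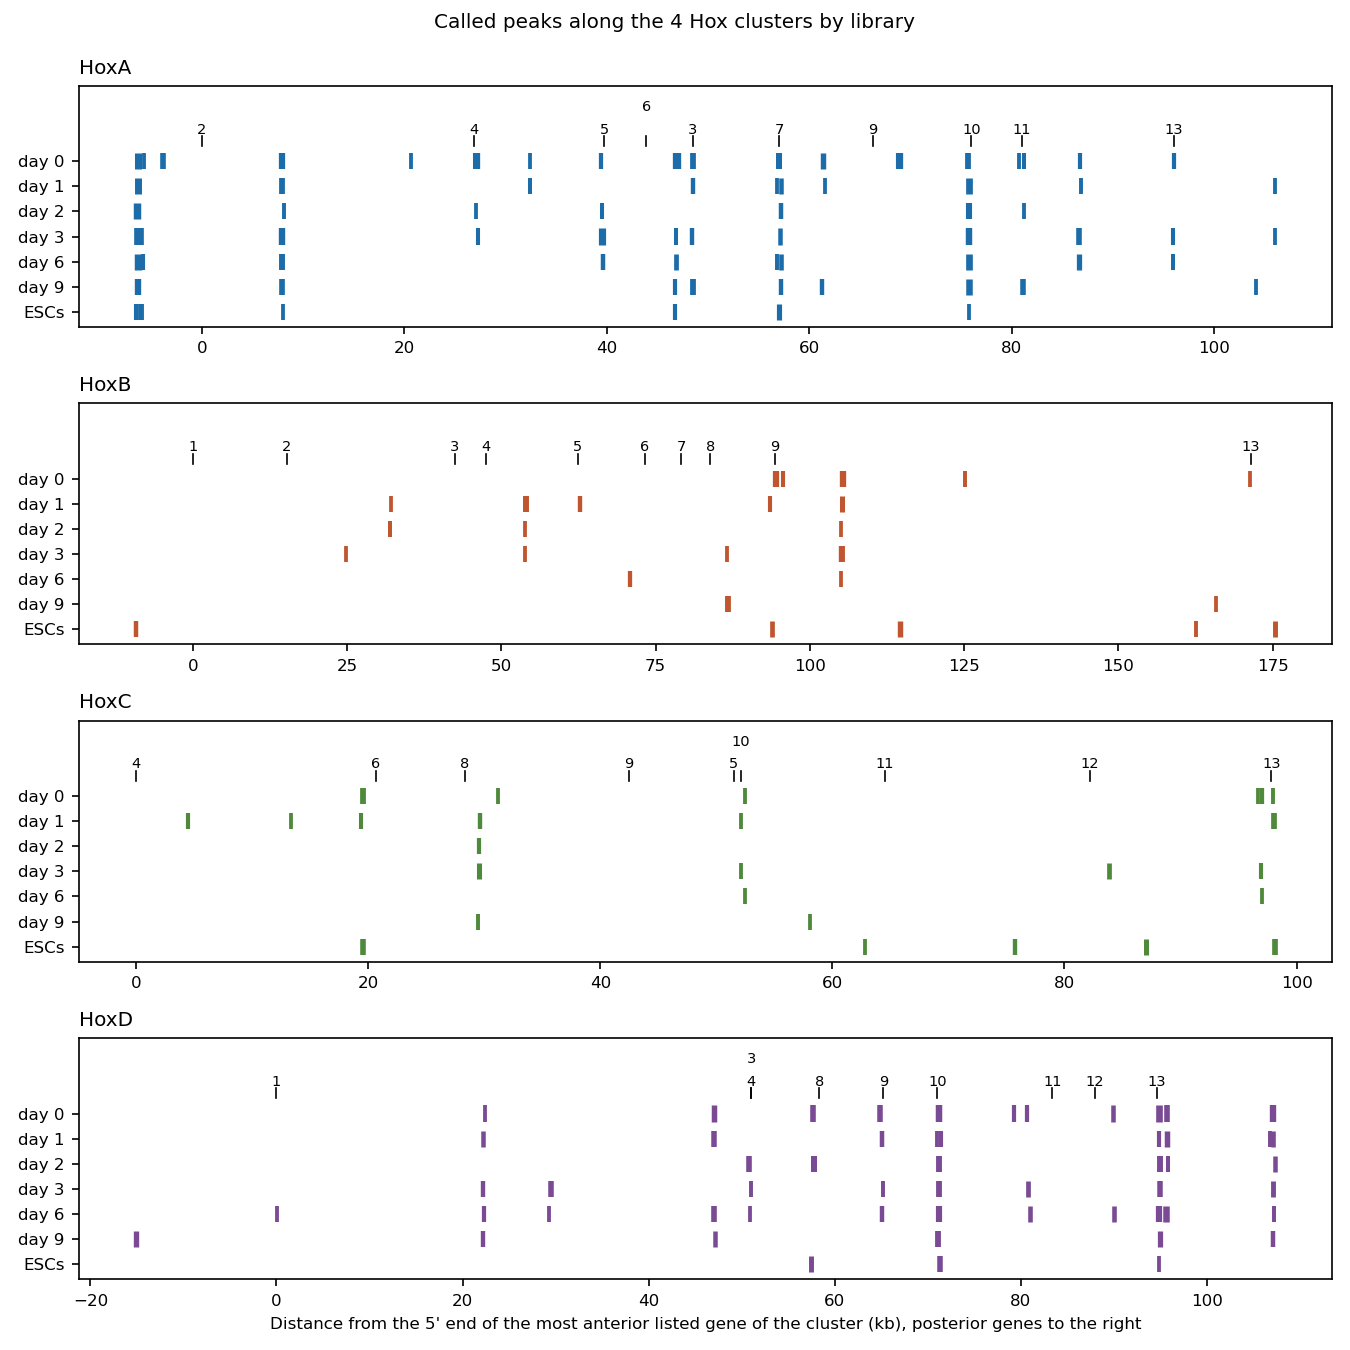
Called peaks of each library (rows) along the 4 clusters, by distance in kb from the 5′ end of the most anterior listed gene (x axis), with marks that thicken with peak width (not to the scale of the axis) and paralogue numbers at the TSSs on top. HoxA and HoxD show columns of peaks present in most libraries, whereas the marks of HoxB between 0 and 90 kb are scattered and absent on day 0.

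The 70 regions of the windows were grouped by the libraries with a peak, beside all 104248 regions. A peak in every library was found for 6 regions (8.57%, against 9.74% of all regions), 4 in HoxA and 2 in HoxD. Of the HoxA regions, 1 lies beyond the genes listed and is not described further. Day 0 alone had 12 (17.1%, against 23.9%). Day 0 with 1 to 3 doxycycline libraries and without ESCs had 15 (21.4%, interval 12.5 to 32.9, against 12.3%), of which 8 were in HoxA, 5 in HoxD and 2 in HoxC. The interval of the last share lay just above its background.

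Under doxycycline alone there were 22 regions (31.4%, against 30.7%), 10 of them in HoxB, 6 in HoxC, 4 in HoxD and 2 in HoxA. ESCs alone had 8 (11.4%, against 9.75%), 5 in HoxB and 3 in HoxC. Day 0 with at least 4 doxycycline libraries and without ESCs had 3 (4.29%, against 8.13%). No region had a peak under doxycycline and in ESCs without one on day 0 (background 3.14%, and 3 counts of 70 as the limit of a count of 0 allow up to 4.29%). The count was 1 with peaks of at least 300 bp and 2 with the widest peaks, and at this number of regions a difference from the background was not detectable.

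The clusters differed in these patterns. A day 0 peak was found in 18 of 20 HoxA regions and 11 of 15 HoxD regions, against 5 of 20 HoxB and 6 of 15 HoxC regions (56.4% of all regions). A peak in a single library was found in 16 of 20 HoxB and 9 of 15 HoxC regions, against 6 of 20 HoxA and 3 of 15 HoxD regions (50.7% of all regions). The median merged width was 244 bp in HoxB, 254 bp in HoxC, 491 bp in HoxA and 590 bp in HoxD, against 424 bp for all regions. HoxB and HoxC regions were thus more often seen once. They were also narrower, but a merged width grows as peaks of more libraries are joined, so the 2 traits are not separate.

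Of the 40 Hox regions with a day 0 peak, 18 had a peak at day 1 (45%), 13 at day 2 (32.5%), 18 at day 3 (45%), 20 at day 6 (50%), 13 at day 9 (32.5%) and 10 in ESCs (25%, interval 12.7 to 41.2). The same shares over all 58812 day 0 regions were 44.7%, 34.7%, 45.3%, 43.5%, 34.7% and 21.4%. The Hox interval held the share of all regions in ESCs. HoxD kept 9 of 11 day 0 regions on day 6 (81.8%, interval 48.2 to 97.7) and HoxA 8 of 18, while HoxB kept 1 of 5 and HoxC 2 of 6. In ESCs HoxD kept 3 of 11 and HoxA 5 of 18.

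Away from the outermost 5′ ends, HoxD had regions that lasted through most MEF libraries. The widest (chr2:74655468-74656247) overlapped an exon of *Evx2*, a homeobox gene beside the posterior end of the cluster, 12063 bp from the *Hoxd13* TSS. It had 590, 538, 308, 362, 223 and 301 bp on days 0, 1, 2, 3, 6 and 9, and no peak in ESCs. Its width was largest on day 0 and smallest on day 6. The region chr2:74740437-74740941, in an intron of the long *Hoxd3* model and 818 bp from one of its annotated starts, had 200 bp on day 0 and 308, 285, 262 and 284 bp on days 1, 3, 6 and 9. In ESCs 2 of the 3 HoxD peaks were the ones at *Hoxd10* and *Hoxd13*, and the third was at *Hoxd8*.

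Regions called in the ESC library alone lay in HoxB and HoxC. The widest were chr11:96250949-96251394 (446 bp, at an exon of *Gm53*), chr15:102931757-102932141 (385 bp, 4616 bp from the *Hoxc12* TSS), chr11:96190167-96190540 (374 bp, 3776 bp from the *Hoxb13* TSS), the *Hoxb9* region given above and chr11:96374802-96375100 (299 bp, 8544 bp from the *Hoxb1* TSS). Under doxycycline alone, the widest after the *Hoxd3* and *Hoxd4* start were chr2:74733269-74733787 (519 bp, days 3 and 6), chr2:74777862-74778296 (435 bp, day 9), chr15:102989161-102989576 (416 bp, 1031 bp from the *Hoxc8* TSS) and the *Hoxb3* region above. The *Hoxc8* region had peaks on days 1, 2, 3 and 9, the most libraries of this class. On day 0 alone, the *Hoxb9* start was followed by regions of 275 and 247 bp near the inner *Hoxa10* start (chr6:52233757-52234031 and chr6:52233441-52233687), one of 259 bp in *Hoxd11* (chr2:74683539-74683797) and one of 246 bp beside *Hoxb9* (chr11:96269921-96270166).

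The windows also hold 16 named noncoding genes, of which 13 had no TSS-proximal peak in any library. These were *Hotairm1*, *Hoxaas2*, *Hoxaas3*, *Mir196b*, *Hoxa11os* and *Hottip* in HoxA, *Mir196a-1*, *Hoxb5os*, *Mir10a* and *Hoxb3os* in HoxB, *Hotair* and *Mir196a-2* in HoxC and *Mir10b* in HoxD. *Hoxd3os1* had one on days 0, 1, 6 and 9, in chr2:74715685-74716198 inside the *Hoxd3* and *Hoxd4* models. *Haglr*, transcribed away from *Hoxd1*, had one on day 6, which is the peak counted for *Hoxd1*, and *Mir615*, in the *Hoxc5* model, had one on day 1. The share of all noncoding genes without such a peak in any library was not computed, so 13 of 16 is a count only. Of all GENCODE genes, 28.7% had a TSS-proximal peak on day 0 and 23% in ESCs.

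The Hox regions were rich in CpG. In the 200 bp at their centre the median GC content was 58% and the median CpG observed over expected 0.64, against 48.5% and 0.23 for all regions. Of the 70 Hox regions, 34 lay within 1 kb of an annotated Hox TSS, and the comparison was not matched for closeness to a TSS. HoxD had the highest CpG value (0.85), followed by HoxA (0.76), HoxC (0.64) and HoxB (0.46). About the TSS (500 bp to either side), the median CpG observed over expected was 0.72 in Hox genes with a TSS-proximal peak in at least 1 library, the same as in all protein-coding genes with such a peak (0.72). Hox genes without one in any library had 0.59, against 0.19 in all protein-coding genes without one. By the median, the Hox genes lacking a call thus had more CpG at their starts than other such genes, with *Hoxc12* (0.89) and *Hoxb7* (0.83) as the highest. Of these Hox genes, only *Hoxb2* (0.18) lay below the 0.19 of protein-coding genes without a call. *Hoxb1* (0.43), *Hoxb3* (0.33), *Hoxb4* (0.49), *Hoxb6* (0.37) and *Hoxc4* (0.29) lay above that value. Like *Hoxb2*, they lay below the median of all protein-coding genes, called or not (0.55).

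**Figure D5:**
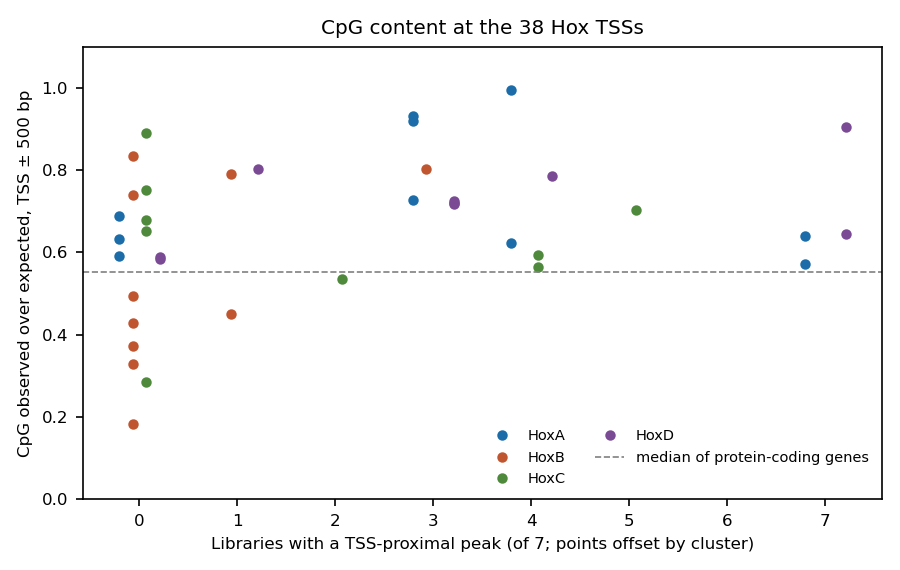
CpG observed over expected within 500 bp of the TSS (y axis) against the number of libraries with a TSS-proximal peak (x axis) for the 38 Hox genes, coloured by cluster, with the median of all protein-coding genes (0.55) as a dashed line. Of the genes in the column at 0 libraries, those below the line are HoxB genes and *Hoxc4*, and the others stand above it.

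Of the 8 motifs, the MYC E-box hexamer was found most often. It was in 11 of 70 Hox regions (15.7%, against 3.3% of all regions), 5 of them in HoxD, 3 in HoxA, 2 in HoxC and 1 in HoxB. It was printed in capitals above in the regions of *Hoxa3*, *Hoxd10* and *Hoxd13*, 3 of the 6 with a peak in every library, and in the region between *Hoxb13* and *Hoxb9*. The hexamer holds a CpG, and among regions with a CpG observed over expected of at least 0.6 it was in 10 of 40 Hox regions (25%) and in 6.29% of all regions. AP-1 matches were in 4 Hox regions (5.71%, against 16%), all 4 with a day 0 peak. Among the regions with that CpG content AP-1 was in 2 of 40 Hox regions (5%) and in 3.54% of all. SOX and HOX-PBX were in 1 of 40 Hox regions each (2.5%, against 1.07% and 0.881% of all). These Hox shares were not below those of all regions, but counts this small give no direction. Over all regions, the CTCF core was in 3 (4.29%, against 1.23%), SOX and KLF in 1 each (1.43%, against 3.65% and 3.44%), HOX-PBX in 1 (1.43%, against 3.45%), the homeobox core in 3 (4.29%, against 3.77%) and the octamer in none (against 2.28%, and a count of 0 of 70 allows up to 4.29%). A match is a run of letters and does not show binding, and neighbouring regions of a cluster are not independent.

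Genes that act with Hox proteins or on their chromatin are given beside the share of protein-coding genes with a TSS-proximal peak, 54.5% on day 0 and 46% in ESCs. The TALE homeobox genes, which encode DNA-binding partners of Hox proteins (Pbx, Meis and Pknox), had a TSS-proximal peak in 9 of 9 genes on days 0 and 9, in 8 of 9 on days 1, 2, 3 and 6, and in 6 of 9 in ESCs. The 3 without one in ESCs were *Pbx2*, *Meis1* and *Meis2*, of which the Meis genes had one in all 6 MEF libraries. Polycomb genes, which silence Hox clusters, had one in 17 of 18 genes on day 0, in 14 to 16 under doxycycline and in 17 in ESCs, and trithorax genes, which keep them active, in 7 of 9 in each library. The genes behind equal counts differed. *Pcgf2* had one on day 0 alone, and *Cbx7* and *Ash2l* had one in ESCs alone. *Rbbp5* had one in all 6 MEF libraries and none in ESCs. The *Cdx* and ParaHox genes, relatives and regulators of the Hox genes, had one in 0 of 6 on day 0, and *Gsx1* was the one of them with any, on days 1, 3, 6 and 9 and in ESCs. Other homeobox genes had one in 24 of 53 on day 0 (45.3%), close to the 44.7% of the Hox genes, in 24, 12, 16, 23 and 16 of 53 on days 1, 2, 3, 6 and 9, and in 15 of 53 in ESCs (28.3%, against 21.1%).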

How the data were processed

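ATAC-seq of 7 mouse libraries, 1 per time-point, was analysed from the deposited peak lists. The authors trimmed paired-end reads (Trimmomatic), mapped them to mm10 (Bowtie2), fixed mate information (SAMtools), removed duplicates (Picard), downsampled all samples to 1 depth that is not stated, and called peaks per library (MACS2). The deposited files give chromosome, start and end alone. Tool versions for mapping and calling are not given in the sources used here. A site near the calling threshold can be listed in one library and not in another at the same signal.

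Groups come from the labels. The 38 Hox genes, the gene lists and the motifs were chosen with earlier results of these data known. A further Hox gene is not reported here; peaks beyond the listed HoxA genes were counted in the window and not described. Genes were taken from GENCODE M21 and sequence from GRCm38 (the mm10 assembly). Overlap was 1 bp or more, as in BEDTools 2.31.1, against which the merging was checked after tests on simulated data. Gene models overlap (*Hoxa3* over *Hoxa4* to *Hoxa6*, *Hoxc5* over *Hoxc6* to *Hoxc9*), so that peaks can count for several genes. Python 3.11.15, SciPy 1.17.1 (exact Clopper-Pearson 95% intervals, counting error only), pysam 0.24.0 and Matplotlib 3.10.9 were used. No test between libraries was possible.

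Genes were named by TSS-proximal state (every library, none, day 0 not ESCs, ESCs not day 0), and all others are given too; regions were the 5 widest per pattern class, and any others were named after their values were seen. Alternatives changed the distances, TSSs, flanks, peak width, number of peaks, merging and libraries.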

Additional observations from a re-analysis of the deposited data

How the results depend on the processing

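Alternatives were compared with the values reported, and a change by more than 1.5 times was taken as a move. The distance from the TSS (500 and 2500 bp), any annotated transcript, a distance of 10 kb, at least 50% of the peak inside the window, windows without flank or with 50 kb flanks and merging within 300 bp moved none of the counts of Hox genes per library, the coverage of the 4 windows together or the number of regions. Leaving out days 2 and 9 gave 66 regions in place of 70. With the gene body alone in place of 5 kb, Hox genes called were 14, 10, 14, 14 and 8 for days 1, 2, 3, 6 and 9, and 8 for ESCs. The 50 kb flank raised the coverage of HoxB on days 3, 6 and 9 to 0.838, 0.567 and 0.584%.

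With peaks at least 300 bp wide, genes with a peak within 5 kb were 12, 10, 14 and 11 for days 1, 2, 6 and 9. TSS-proximal genes were 9, 5, 6, 5 and 5 for days 0, 1, 2, 3 and 6. Coverage of the 4 windows was 1.46, 0.755, 0.568, 1.03 and 0.717% for days 0, 1, 2, 3 and 9, and 34 regions were left, 1 of them with a peak in every library. With the 27074 widest peaks per library, genes within 5 kb were 17, 12, 16 and 15 for days 0, 1, 3 and 6. TSS-proximal genes were 9, 5, 4 and 6 for the same days, coverage was 1.34%, 0.755% and 0.984% for days 0, 1 and 3, and 40 regions were left, 3 of them with a peak in every library. These settings use fewer peaks by construction. Of the patterns, regions under doxycycline and in ESCs without day 0 were 0 with all peaks, 1 with the minimum width and 2 with the widest peaks.

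Leaving out each cluster in turn, an alternative added after seeing the data, moved the day 0 share of anterior genes to 0% without HoxA and to 25% without HoxB. With all GENCODE genes in place of protein-coding genes, the TSS-proximal background fell to 28.7% on day 0 and lay below the Hox share on days 0, 1, 2, 3 and 6. No paired analysis was possible because no group holds more than 1 library. Without read counts, an open site that was missed and a closed site cannot be told apart.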
